A study of Mus musculus with 169 samples.

Results

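Rab genes encode the Rab small GTPases, and 57 of them were measured in sorted mouse microglia, the resident macrophages of the brain, with and without progranulin. Members were the genes whose symbol is Rab followed by a number and, in some, a letter, which leaves out the proteins that bind or regulate Rabs. The annotation used here lists 59 such genes, and Rab36 and Rab44 had no matching probe. The 57 genes were matched by 80 probes, of which 79 passed the filter on dim probes, and they stand among 31927 features tested, 17798 of them with a gene symbol. The brightest probe of each gene was used, and values are the log2 of a probe's signal over the 75th percentile of its array. All 57 genes passed the filter through their brightest probe. Between 50 and 53 of them were above background on every array of a group. By its brightest probe, Rab39b was not well above background on any 4-month array, nor Rab27b on any 16-month array. Among the brightest probes, that of Rab39b alone passed the filter (at least 3 arrays above background) only through the group where it was highest, KO at 16 months.

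The mice were on a C57B/6J background and were wild type (WT, Grn+/+) or knockout (KO, Grn-/-) for Grn, the gene for progranulin, a secreted and lysosomal glycoprotein. Groups were WT at 4 months (4 arrays), KO at 4 months (3 arrays), WT at 16 months (4 arrays) and KO at 16 months (4 arrays). Cells were enriched on a Percoll gradient, then taken by flow cytometry using antibodies to CD45, Ly6G and CD11b, and the labels say neither what sex the mice were nor whether mice were pooled. The submitters excluded 1 further array. WT arrays 1 and 2 at 16 months differed from each other about as little as repeat spots of 1 array do, as did arrays 3 and 4, so each pair counted as 1 replicate and that group had 2. All p-values measure the spread between these samples, which may be technical.

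A Rab cycles between a form bound to GTP, which sits on a membrane and recruits effectors, and a form bound to GDP, which the GDP dissociation inhibitors keep in the cytosol. Exchange factors load GTP, GTPase-activating proteins end the active state, and each membrane compartment carries its own Rabs, so that they mark the route from the endoplasmic reticulum (ER) through the Golgi, endosomes and phagosomes to the lysosome. Microglia engulf debris and synapses, and Rabs of phagosomes and lysosomes serve that traffic; progranulin itself is delivered to lysosomes.

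The 75th percentile of the signal lay between 1306 and 1649 for WT and 1072 and 1752 for KO at 4 months; at 16 months the range was 1010 to 1511 for WT and 507 to 1037 for KO. Between 54.2 and 62.7% of probes were above background on the KO arrays at 16 months, against 64.6 to 76.5% on WT arrays of either age, and no spot was saturated (0 spots). Levels of Grn lay between 6.13 and 6.32 in WT and between -3.36 and -2.06 in KO at 4 months, and between 4.61 and 5.46 in WT at 16 months; its probe was at the floor of -4.94 on all 4 KO arrays of that age. The 8 microglia markers checked were above background in all 4 groups, and 7 of the 8 fell in KO at 16 months. The log2 of their summed level was 9.96 to 10.57 in WT and 7.90 to 9.07 in KO, so that fewer microglia in the sort and less RNA per microglia cannot be told apart here. Of 10 choroid plexus markers 5 rose at that age, and the log2 of their summed level was 8.48 to 9.38 in WT and 10.02 to 10.92 in KO. Summed levels of other lists also parted without overlap at 16 months. Those of oligodendrocytes (3.6827 to 4.3499 in WT, 3.3675 to 3.6795 in KO) and lymphocytes (0.80 to 1.30, -0.10 to 0.10) lay lower in KO. Hba-a1, the only red blood cell marker measured, lay higher (-2.86 to -2.05, -0.43 to 3.54). Neutrophil sums overlapped and ran from -2.36 to 7.97 within KO. All lists that parted moved with every KO difference at 16 months given here. The part of the marker lists in those differences was not tested.

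The comparison of KO with WT at 16 months asked how Rab genes differ in aged microglia without progranulin. Rab genes moved in both directions. By limma's moderated test with Benjamini-Hochberg adjustment over all features (adjusted p under 0.05, the threshold for every call), 16 of 57 rose and 9 fell, against 19.3% of all features that rose and 15.1% that fell. Without Rab39b, which passed the probe filter only through the KO arrays, 15 rose. In percent of the 57 genes that was 28.1% and 15.8%, so the share of falls was near the background. Of all features 34.4% passed, and of the Rab genes 43.9%. Replicates of the groups did not overlap for 17 Rab genes that lay higher and 10 that lay lower in KO, against 24.2% and 18.1% of all features. The median difference was 0.42 over the Rab genes, 0.20 over features with a gene symbol and 0.12 over all features. With the 75th percentile taken over probes detected on all arrays, which moved the median of all features from 0.12 to 0.00, 11 Rab genes rose and 11 fell, against 14.5% and 19.2% of all features. With quantile normalization 12 rose and 11 fell, against 20.1% and 17.1%. Restricted to probes that every one of the 15 arrays measured above background, 46 Rab genes were tested and 44.7% of features passed. Of those 46 genes 14 rose and 8 fell, against 28.9% and 15.8% of all features, so both shares were near the background.

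**Figure D1:**
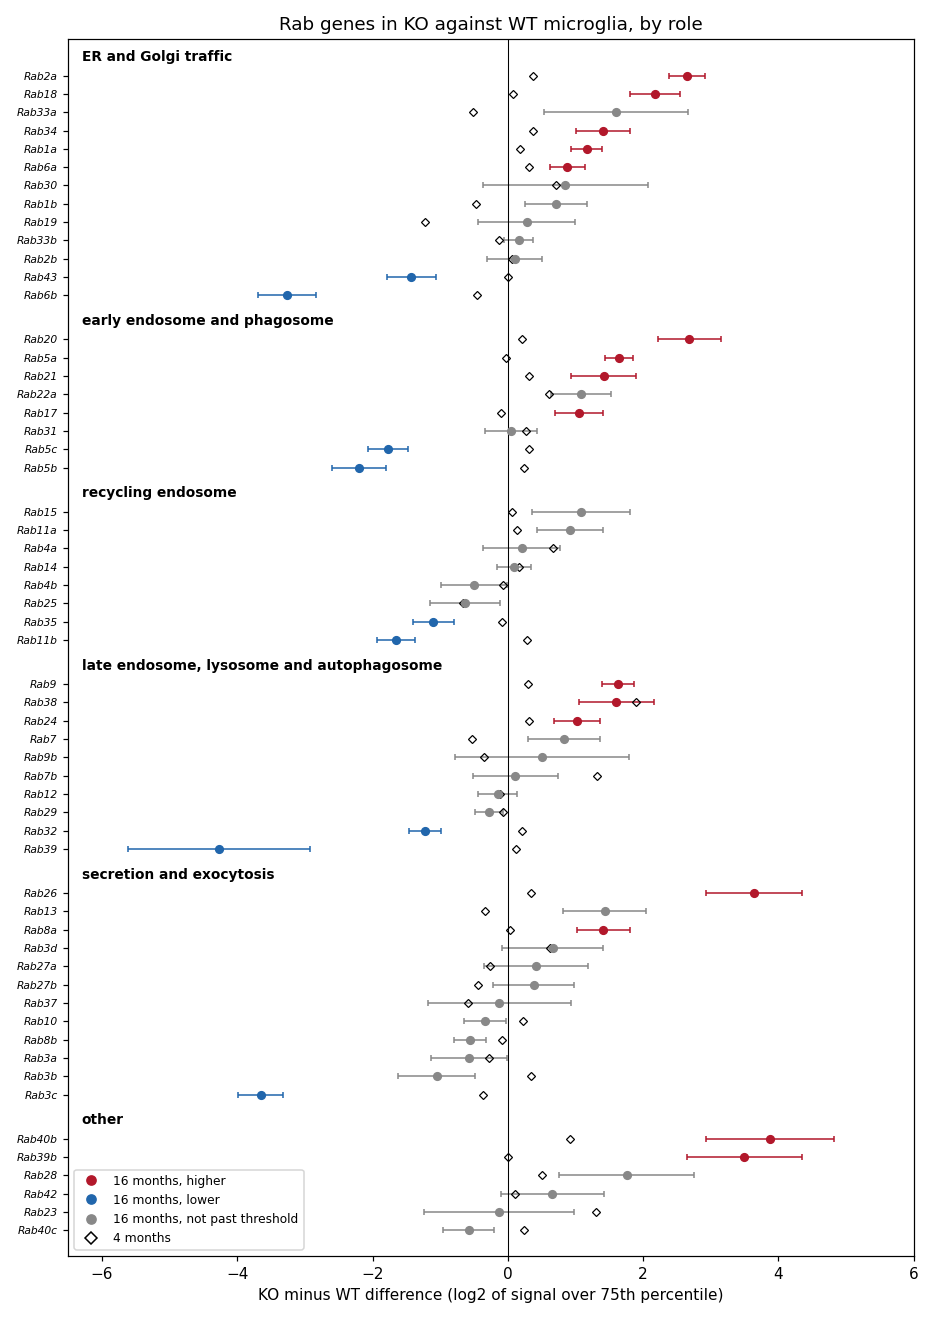
KO minus WT differences (x axis, log2) of all 57 Rab genes, grouped by role and ordered within a role by the difference at 16 months. Filled points with bars are the differences at 16 months with their standard errors (red, 16 genes that rose; blue, 9 that fell; grey, not past the threshold), and open diamonds are the differences at 4 months, none of which passed.

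Of 8 Rabs of the early endosome and phagosome 4 rose and 2 fell (50% and 25%, against 19.3% and 15.1% of all features). The role classes hold 6 to 13 genes each, so they are not ranked by these shares. The 3 Rab5 genes, which drive the fusion of early endosomes and of new phagosomes with them, went in opposite directions. Rab5a was measured at 4.02 and 4.12 in the 2 WT replicates and at 5.92, 5.72, 5.57 and 5.64 in KO. Every KO replicate of Rab5a lay above both WT replicates, and it rose by 1.64 (SE 0.20, limma adjusted p = 0.000325). Rab5b, on its brightest probe, was measured at 3.79 and 3.41 in WT and at 1.62, 1.59, 2.06 and 0.30 in KO. It fell by 2.20 (SE 0.40, limma adjusted p = 0.00241), with no overlap between the groups. Rab5c was measured at 4.34 and 5.01 in WT and at 3.09, 2.84, 3.40 and 2.28 in KO. It fell by 1.77 (SE 0.30, limma adjusted p = 0.00165), again without overlap.

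Rab20, a Rab of macrophage phagosomes, rose by 2.68 (SE 0.47, limma adjusted p = 0.00193). Its level was -1.24 and 0.75 in WT and 2.81, 2.10, 2.43 and 2.40 in KO, so the KO replicates lay together above 2 WT replicates that differed widely. Rab21, which accompanies integrins through early endosomes, rose by 1.42 (SE 0.48, limma adjusted p = 0.0412), from 0.02 and -1.03 to values between 0.21 and 1.39. The Rab21 call was lost in 12 of 22 alternatives, among them quantile normalization (limma adjusted p = 0.0592). Rab17, a Rab of epithelial cells chosen after its values were seen, rose by 1.05 from a level near the floor (-4.92 and -4.89 in WT, -4.36 to -2.84 in KO). The Rab17 call was lost in 15 of 22 alternatives. The remaining members of the class did not pass. Rab22a, also of early endosomes, differed by 1.08 (SE 0.44, limma adjusted p = 0.0808), and Rab31, which works between the trans-Golgi and endosomes, by 0.04 (SE 0.38, limma adjusted p = 0.981). Rab31 lay below WT instead with quantile normalization (-0.37).

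The sequences before the start sites are shown for Rab5a, Rab21 and Rab20, which rose and hold the letters CACGTG, and for Rab5b and Rab5c, which fell and do not. CACGTG, an E-box, is bound by the TFEB family of lysosomal gene regulators, among others. Capitals mark CACGTG. Each run is the 250 bases before the start, 5′ to 3′ on the gene's strand, from RefSeq on GRCm38.p6.
Rab5a (chr17:53478984-53479233, + strand): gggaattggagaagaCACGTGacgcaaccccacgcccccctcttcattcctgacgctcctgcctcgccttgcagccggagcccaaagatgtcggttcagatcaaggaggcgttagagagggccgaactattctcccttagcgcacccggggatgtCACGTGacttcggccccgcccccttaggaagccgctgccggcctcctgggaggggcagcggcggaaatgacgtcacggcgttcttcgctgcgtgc
Rab21 (chr10:115315592-115315841, - strand): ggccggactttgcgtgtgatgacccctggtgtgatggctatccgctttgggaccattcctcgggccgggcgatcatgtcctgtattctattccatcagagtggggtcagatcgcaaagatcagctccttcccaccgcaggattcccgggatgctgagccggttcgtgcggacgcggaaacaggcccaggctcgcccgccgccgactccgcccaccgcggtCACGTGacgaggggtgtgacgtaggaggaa
Rab20 (chr8:11478641-11478890, - strand): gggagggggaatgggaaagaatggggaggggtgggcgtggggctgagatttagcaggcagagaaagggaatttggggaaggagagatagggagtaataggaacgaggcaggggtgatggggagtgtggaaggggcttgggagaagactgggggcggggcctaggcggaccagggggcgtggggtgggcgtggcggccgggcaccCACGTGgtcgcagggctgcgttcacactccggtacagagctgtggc
Rab5b (chr10:128696269-128696518, - strand): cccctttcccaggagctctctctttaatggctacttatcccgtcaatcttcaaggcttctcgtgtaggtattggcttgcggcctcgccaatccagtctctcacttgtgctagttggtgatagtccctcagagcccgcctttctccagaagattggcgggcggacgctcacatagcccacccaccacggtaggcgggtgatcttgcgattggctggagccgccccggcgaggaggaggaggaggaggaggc
Rab5c (chr11:100738216-100738465, - strand): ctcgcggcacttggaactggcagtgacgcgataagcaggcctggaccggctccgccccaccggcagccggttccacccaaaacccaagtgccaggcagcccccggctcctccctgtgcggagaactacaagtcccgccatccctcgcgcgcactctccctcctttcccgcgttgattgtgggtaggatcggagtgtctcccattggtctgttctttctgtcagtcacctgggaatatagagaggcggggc
Of the 57 Rab genes 48 had such a sequence. CACGTG, which reads the same on both strands, stood in 3 of the 12 Rab genes that rose and had a sequence (Rab5a, Rab20 and Rab21), in 0 of the 9 that fell and in 2 of the 27 others (Rab23 and Rab27a). It stood in 6.86% of all 27025 genes with a sequence, in 8.60% of all measured genes, and in 9.33% of all measured genes that rose and 9.36% of those that fell. GGGCGG, the GC box, searched on both strands, stood in 6 of the 12 that rose, 7 of the 9 that fell and 23 of the 27 others, against 53.0% of all measured genes and 35.4% of all genes. CCAAT, also on both strands, stood in 4 of the 12, 5 of the 9 and 15 of the 27, against 39.7% of all measured genes and 37.5% of all genes. TGACTCA and CCGGAAG were searched as well and stood in 2 and 3 of the 48 Rab genes, in 4.43% and 11.9% of all measured genes and in 5.16% and 7.83% of all genes. These motifs were chosen with the calls known. A match says only that the letters are there. The median GC content of these sequences was 62.6% in Rab genes that rose, 59.2% in those that fell and 60.8% in the others. It was 57.6% over all measured genes (58.0% in those that rose, 58.8% in those that fell) and 52.4% over all genes.

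**Figure D2:**
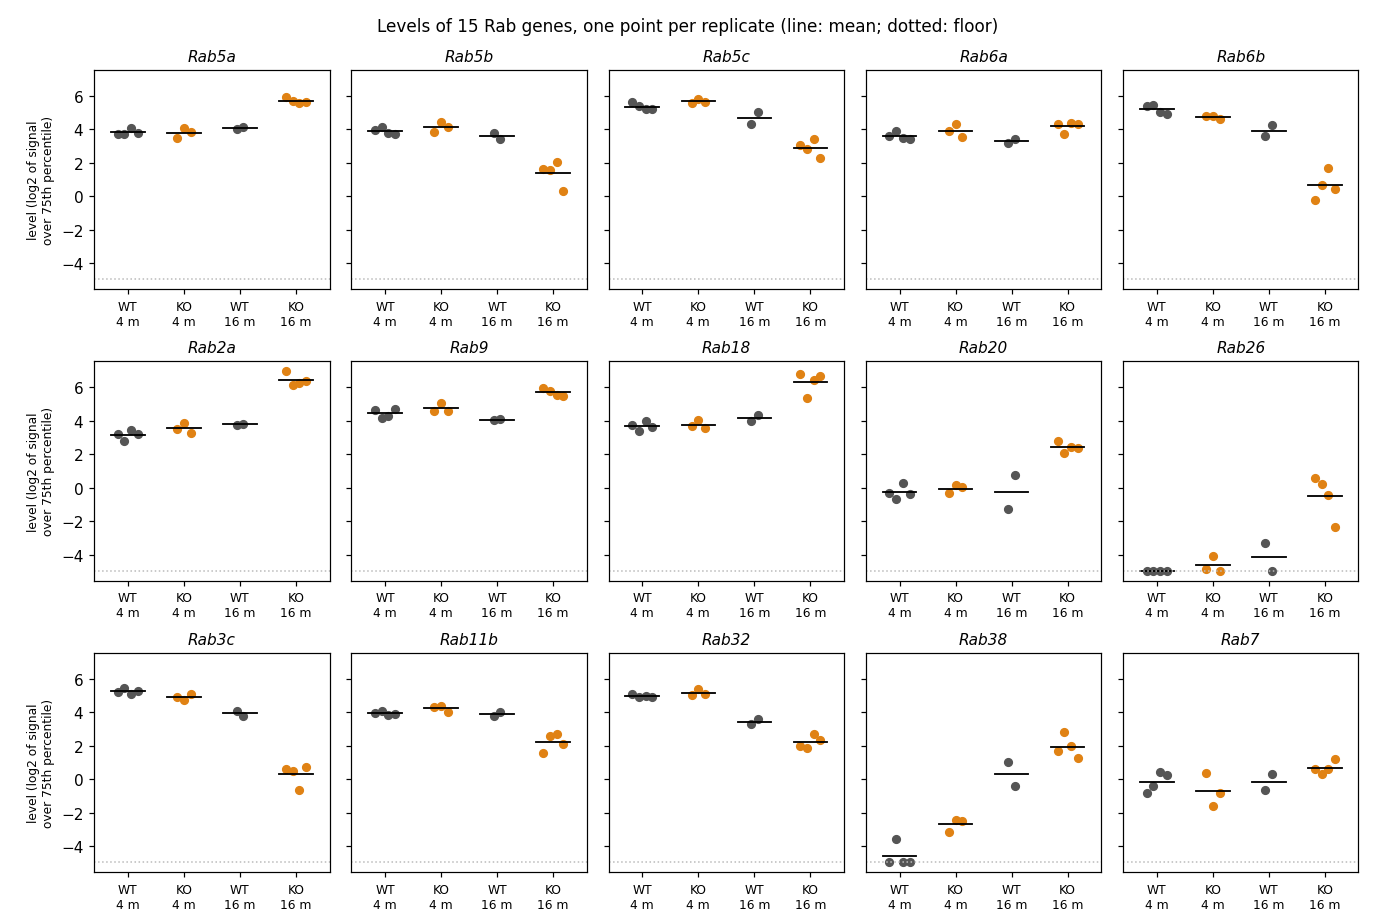
Levels of 15 Rab genes (y axis, log2 of signal over the 75th percentile), with 1 point per replicate in WT (grey) and KO (orange) at 4 and 16 months, a line at each mean and a dotted line at the floor of -4.94. The 4 KO replicates at 16 months lie above both WT replicates for Rab5a, Rab2a, Rab9, Rab18 and Rab20 and below both for Rab5b, Rab5c, Rab6b, Rab3c, Rab11b and Rab32.

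Of 13 Rabs of ER and Golgi traffic 5 rose and 2 fell (38.5% and 15.4%, against 19.3% and 15.1% of all features). Rab2a, which works between ER and Golgi and also in fusion with lysosomes, was measured at 3.78 and 3.82 in WT and at 6.97, 6.15, 6.29 and 6.40 in KO. The KO replicates lay together, far above 2 WT replicates that hardly differed, and it rose by 2.65 (SE 0.27, limma adjusted p = 0.000147). Rab18, a Rab of the ER and of lipid droplets, was measured at 3.97 and 4.33 in WT and at 6.82, 5.35, 6.44 and 6.68 in KO. It rose by 2.17 (SE 0.37, limma adjusted p = 0.00167) without overlap. Rab1a, which carries cargo from the ER to the Golgi, rose by 1.17 (SE 0.23, limma adjusted p = 0.00366), from 5.79 and 6.00 to values between 6.85 and 7.38; with quantile normalization it differed by 0.45 (limma adjusted p = 0.306). Its relative Rab1b differed by 0.71 (SE 0.46, limma adjusted p = 0.262). Rab34, a Rab of the Golgi and of lysosome positioning, rose by 1.41 (SE 0.40, limma adjusted p = 0.0207), from 2.83 and 2.20 to values between 3.23 and 4.58.

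The 2 Rab6 genes, which serve retrograde transport through the Golgi, also parted. Rab6a was measured at 3.19 and 3.42 in WT and at 4.32, 3.73, 4.35 and 4.33 in KO, and rose by 0.88 (SE 0.26, limma adjusted p = 0.0240); with quantile normalization it differed by 0.42 (limma adjusted p = 0.245) and with the other 75th percentile by 0.57 (limma adjusted p = 0.140), neither past the threshold. Rab6b, the form known from neurons, was measured at 3.59 and 4.24 in WT and at -0.22, 0.65, 1.72 and 0.45 in KO. It fell by 3.27 (SE 0.43, limma adjusted p = 0.000469), and its highest KO replicate was well below both WT replicates. Rab43, also of the Golgi, fell by 1.42 (SE 0.36, limma adjusted p = 0.0115), from 2.60 and 3.38 to values between 1.19 and 2.20. Neuron markers, checked because some of these genes are known from neurons, gave 1 rise and 2 falls among 8, and the log2 of their summed level was 3.02 to 3.50 in WT and 2.92 to 3.91 in KO at 16 months.

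Recycling endosomes return receptors to the surface. Of their 8 Rabs 0 rose and 2 fell (0% and 25%, against 19.3% and 15.1% of all features). Rab11b was measured at 3.77 and 4.02 in WT and at 1.59, 2.61, 2.69 and 2.09 in KO, a fall of 1.65 (SE 0.28, limma adjusted p = 0.00169). Its relative Rab11a lay on the other side, at 2.49 and 3.04 in WT and between 2.83 and 4.69 in KO, but the groups overlapped and the difference of 0.92 did not pass (SE 0.48, limma adjusted p = 0.169). Rab35, a Rab of fast recycling, fell by 1.10 (SE 0.31, limma adjusted p = 0.0188), from 3.71 and 4.61 to values between 2.74 and 3.66. Rab14, which shuttles between Golgi and endosomes, had one of the brightest probes (5.55 and 6.16 in WT) and differed by 0.09 (SE 0.25, limma adjusted p = 0.838). Its difference was -0.63 with quantile normalization.

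Among 10 Rabs of late endosomes, lysosomes and autophagosomes 3 rose and 2 fell (30% and 20%, against 19.3% and 15.1% of all features). Rab7, which governs the passage from late endosome to lysosome, was measured by a dim probe at -0.62 and 0.32 in WT and at 0.60, 0.31, 0.59 and 1.22 in KO. The groups overlapped slightly and the difference of 0.83 did not pass (SE 0.53, limma adjusted p = 0.259). Rab7b, its macrophage relative, differed by 0.11 (SE 0.63, limma adjusted p = 0.943). Rab9, which returns receptors from late endosomes to the trans-Golgi, was measured at 4.05 and 4.09 in WT and at 5.98, 5.78, 5.55 and 5.48 in KO. It rose by 1.63 (SE 0.23, limma adjusted p = 0.000674), and its other 2 probes rose by 1.65 and 2.47.

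Rab32 and Rab38, a pair that sorts cargo to lysosome-related organelles, went apart. Rab32 was measured at 3.33 and 3.58 in WT and at 1.98, 1.85, 2.72 and 2.37 in KO, and fell by 1.23 (SE 0.24, limma adjusted p = 0.00337). Rab38 was measured at 1.04 and -0.40 in WT and at 1.68, 2.81, 1.97 and 1.25 in KO, and rose by 1.61 (SE 0.55, limma adjusted p = 0.0453). A second, dimmer Rab38 probe lay near the floor and went the other way. In a fit over single probes it passed as a fall (-1.44, limma adjusted p = 0.0329) while the brightest did not pass (limma adjusted p = 0.0508), and the mean of both probes differed by 0.08 (limma adjusted p = 0.933). Rab39, which acts in phagosome acidification, fell by 4.27 (SE 1.35, limma adjusted p = 0.0321), with KO replicates spread from 0.94 to the floor of -4.94. Because 2 of them were at the floor, that difference is limited by the floor. Rab24, an autophagosome Rab chosen after its values were seen, rose by 1.02 (SE 0.34, limma adjusted p = 0.0413), a call lost in 12 of 22 alternatives, among them quantile normalization (0.50, limma adjusted p = 0.162) and the other 75th percentile (0.71, limma adjusted p = 0.0839). Rab12, a Rab of lysosome traffic, differed by -0.15 (SE 0.28, limma adjusted p = 0.732) and Rab29, which recruits the kinase Lrrk2 to membranes, by -0.28 (SE 0.21, limma adjusted p = 0.340).

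Of 12 Rabs of secretion and exocytosis 2 rose and 1 fell (16.7% and 8.33%, against 19.3% and 15.1% of all features). Rab3c, of the Rab3 group that tethers synaptic and secretory vesicles, was measured at 4.10 and 3.81 in WT and at 0.60, 0.47, -0.62 and 0.76 in KO. It fell by 3.65 (SE 0.33, limma adjusted p = 9.03e-05), the smallest adjusted p among the 57 genes. A second Rab3c probe fell by 3.54 and the remaining one, which was dim, differed by -0.49. Rab3a, the main Rab3 of neurons, differed by -0.57 (SE 0.56, limma adjusted p = 0.473). Rab26, a Rab of secretory granules, was measured at -3.30 and at the floor of -4.94 in WT and at 0.56, 0.23, -0.40 and -2.31 in KO. It rose by 3.64 (SE 0.71, limma adjusted p = 0.00325), a size limited by the WT replicate at the floor.

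Rab8a, which carries vesicles from the Golgi to the surface, rose by 1.41 (SE 0.39, limma adjusted p = 0.0183), from -0.43 and 0.91 to values between 1.23 and 2.01. Its second probe differed by 0.03. Rab8b differed by -0.56 (SE 0.23, limma adjusted p = 0.0869) although its groups did not overlap, and it passed as a fall with quantile normalization. Rab10, a further Rab of Golgi-to-surface traffic, differed by -0.34 (SE 0.32, limma adjusted p = 0.453). Rab27a, which docks lysosome-related organelles and exosome-bearing endosomes, differed by 0.42 (SE 0.76, limma adjusted p = 0.725). The brightest Rab27b probe was below background on the 16-month arrays of both genotypes. A second, dimmer probe was above it on 3 of 4 KO arrays at 16 months and on 0 arrays of the other groups. That probe passed the filter only through those KO arrays, so its fitted difference of 2.58 is a description.

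Among the 6 genes with other or less settled roles 2 rose and 0 fell (33.3% and 0%, against 19.3% and 15.1% of all features). Rab40b, of the Rab40 group that binds ubiquitin ligases, was measured at 0.31 and -3.18 in WT and at 3.19, 1.50, 2.57 and 2.53 in KO, and rose by 3.88 (SE 0.95, limma adjusted p = 0.0103). The 2 WT replicates lay far apart. Rab39b, known as a gene of intellectual disability, was at the floor in both WT replicates and at -3.34, -2.63, -0.23 and 0.41 in KO. Its groups did not overlap. Its probe had to be higher in KO to pass the filter, so the fitted difference of 3.49 is a description, and with normexp it was 1.81.

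By single probes, the brightest in WT at 16 months were those of Rab1a (5.90 ± 0.15, SD, n = 2), Rab14 (5.86 ± 0.43), Rab8b (5.20 ± 0.35), Rab5c (4.67 ± 0.48) and Rab10 (4.60 ± 0.23). The dimmest were those of Rab39b and Rab27b, both at the floor, Rab17 (-4.90 ± 0.02), Rab13 (-4.66 ± 0.09) and Rab33a (-4.21 ± 1.04). Brightness depends on the probe as well as on the RNA, so no order of the genes is read from it.

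Pairs of related genes were then set side by side within each replicate, where any factor that scales a whole array cancels. There were 22 pairs (genes with the same number, and Rab32 with Rab38). Of these 5 held 1 rise and 1 fall, 1 held 2 falls (Rab5b and Rab5c), 9 held a single call and 7 none. Among the 5 is Rab39 with Rab39b, whose probe had to be higher in KO to pass the filter. Of all 57 Rab genes 28.1% rose and 15.8% fell, and the count of opposite pairs was not tested against these shares. Rab5a minus Rab5b was 0.23 to 0.72 in WT and 3.50 to 5.34 in KO at 16 months. Rab5a minus Rab5c was -0.89 to -0.32 in WT and 2.16 to 3.37 in KO. Rab6a minus Rab6b was -0.83 to -0.40 in WT and 2.64 to 4.54 in KO. In these 3 pairs the within-replicate difference was larger in every KO than in every WT replicate. For all 5 pairs with opposite calls the separation follows from the single genes, which already lay apart without overlap. It is a description and no further check of the calls. Rab32 minus Rab38 was 2.29 to 3.97 in WT and -0.96 to 1.11 in KO, and Rab39 minus Rab39b was 5.93 to 7.10 in WT and -2.31 to 0.53 in KO, the last limited by the floor. An exact two-sided permutation test gave p = 0.0667 for 10 of the 22 pairs, including these 5, the smallest that 15 arrangements of 2 and 4 replicates allow (Benjamini-Hochberg adjusted p = 0.147 over the 22 pairs), so no pair could pass. For the pair with Rab39b no p-value is read, since the Rab39b probe had to be higher in KO to pass the filter.

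**Figure D3:**
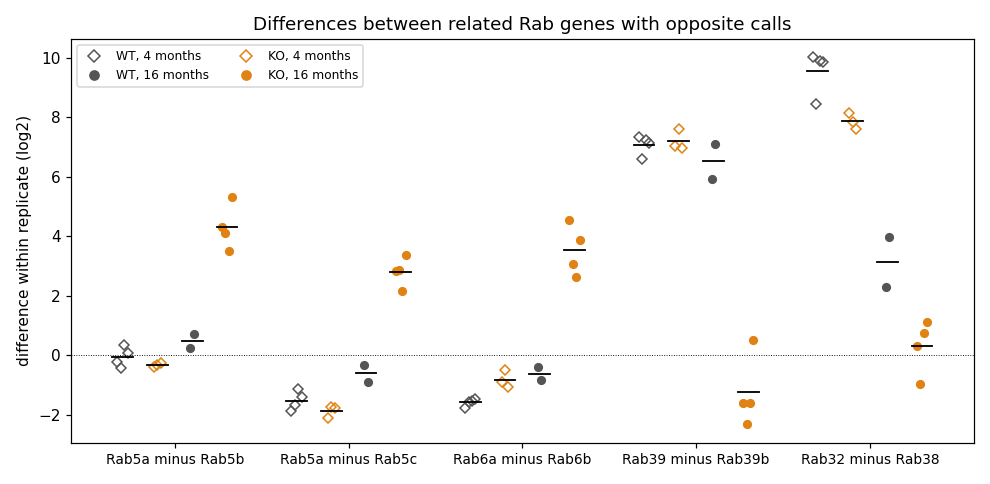
Difference between 2 related Rab genes within each replicate (y axis, log2) for the 5 pairs with opposite calls, in WT (grey) and KO (orange) at 4 months (diamonds) and 16 months (circles), with a line at each mean. Rab5a minus Rab5b lies at 0.23 and 0.72 in WT and at 3.50 to 5.34 in KO at 16 months, and the 4-month values of the same pair lie near 0 in both genotypes. The probe of Rab39b passed the filter only through KO at 16 months.

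A second look at the calls used the other probes and the other settings. Of the 57 genes 18 had more than 1 kept probe, and in 10 of the 18 all probes lay on the same side of 0. Of the 18 genes 8 were called, 7 of them also in a fit over single probes (all but Rab38), and 3 were called the same way on another probe (Rab3c, Rab9 and Rab43, whose probes fell by 1.42 and 2.05). No Rab5 gene passed on another probe: the second Rab5a probe differed by 0.61 (limma adjusted p = 0.388), and Rab5c had 1 probe. The other 3 Rab5b probes, all dim (WT means between -4.94 and -3.20 at 16 months), differed by 0.45 to 1.36, none past the threshold, and the mean of its 4 probes differed by 0.17. The second Rab10 probe rose by 1.08 and the second Rab29 probe by 1.46, whereas their brightest probes lay slightly below WT.

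The main fit takes 1 spread per feature over both ages. Leaving aside the averaged WT pairs, arrays of a group differed more at 16 months than at 4 months. Their scaled median absolute log2 difference was 0.565 to 1.28 and 0.382 to 0.509. The calls of Rab2a, Rab3c, Rab5a, Rab6b and Rab9 passed under every alternative run. Fitted without the 4-month arrays, where 10.8% of all features passed, those 5 and Rab1a were the 6 of 25 that passed; Rab5c (limma adjusted p = 0.0548), Rab18 (0.0544), Rab20 (0.0559), Rab11b (0.0567), Rab32 (0.0646), Rab5b (0.0665), Rab6a (0.0803) and Rab26 (0.0818) were nearest. Without WT replicate 3 and 4, 15 of 25 passed and Rab6a, Rab17, Rab21, Rab34, Rab35, Rab38, Rab39, Rab39b, Rab40b and Rab43 did not. Without WT replicate 1 and 2, 19 passed and Rab6a, Rab8a, Rab17, Rab24, Rab39 and Rab39b did not. Leaving out single KO replicates of that age ended calls of Rab6a, Rab17, Rab21, Rab24, Rab38 and Rab39, and leaving out single 4-month replicates ended those of Rab17, Rab21, Rab24 and Rab38. A replicate block ended the calls of Rab17, Rab21, Rab24 and Rab35.

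The same comparison at 4 months asked whether these differences stand in younger mice. By limma 0 of 57 Rab genes passed in either direction, against 0.0251% of all features, of which 0.0157% rose and 0.0094% fell. At an unadjusted p under 0.05 there were 2 Rab genes, and 1927 features in all. The median difference of the Rab genes was 0.12, that of features with a gene symbol 0.04 and that of all features 0.00. All 10 choroid plexus markers lay higher in KO at this age without overlap, 0 of them past the threshold by limma and all 10 at an unadjusted p under 0.05; the log2 of their summed level was 3.46 to 6.997 in WT and 7.54 to 8.20 in KO. Summed levels of other marker lists also parted without overlap at this age. Those of neutrophils (5.10 to 6.91 in WT, 7.67 to 8.03 in KO), monocytes, border macrophages and astrocytes lay higher in KO. Those of oligodendrocytes and lymphocytes lay lower in KO. The part of all these lists in the Rab values was not tested. The 2 Rab genes were Rab38 and Rab7b. Rab38 was at the floor of -4.94 in 3 WT replicates and at -3.54 in the other, and at -3.12, -2.44 and -2.51 in KO, a difference of 1.90 (SE 0.49, limma adjusted p = 0.390). Its groups did not overlap, but its WT level was at or near the floor. Rab7b was measured at -1.18, -1.72, -1.03 and -0.78 in WT and at 0.68, 0.10 and -0.34 in KO, a difference of 1.32 (SE 0.55, limma adjusted p = 0.773), also without overlap.

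Genes with the clearest changes at 16 months lay close together at 4 months. Rab5a was measured at 3.74, 3.70, 4.10 and 3.79 in WT and at 3.48, 4.08 and 3.86 in KO, a difference of -0.03 (SE 0.18). The groups overlapped throughout. Rab2a differed by 0.37 (SE 0.24), Rab9 by 0.30 (SE 0.21), Rab5b by 0.24 (SE 0.35) and Rab5c by 0.32 (SE 0.27), each with limma adjusted p of 0.970 or more and with overlap. Rab3c lay lower in KO in all replicates (5.12 to 5.47 in WT, 4.72 to 5.08 in KO), as did Rab6b (4.90 to 5.47 and 4.60 to 4.82), but their differences of -0.37 (SE 0.29) and -0.46 (SE 0.38) did not pass. At 4 months 3 Rab genes lay higher and 4 lower without overlap, against 5% and 6.72% of all features.

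Whether the KO difference itself differed between the ages was tested as an interaction. Of 57 Rab genes 12 passed, 6 towards a higher and 6 towards a lower KO level at 16 months, against 13.4% of all features (6.81% and 6.54%). Each of the 12 was also called at 16 months. Towards higher, the difference of differences was 1.67 for Rab5a (SE 0.27, limma adjusted p = 0.00502), 2.27 for Rab2a (SE 0.36, limma adjusted p = 0.00439), 1.33 for Rab9, 2.09 for Rab18, 2.48 for Rab20 and 3.30 for Rab26. Towards lower, it was -3.28 for Rab3c (SE 0.45, limma adjusted p = 0.00258), -2.81 for Rab6b (SE 0.58, limma adjusted p = 0.0125), -2.45 for Rab5b, -2.09 for Rab5c, -1.93 for Rab11b and -1.44 for Rab32. With a replicate block 6 genes passed. The interaction of Rab2a, Rab3c, Rab6b and Rab32 passed under every alternative run. That of Rab5a was lost with the mean of its probes (limma adjusted p = 0.0595), that of Rab9 in 4 of 21 alternatives (among them without KO replicate 1 or 3 at 4 months), that of Rab18 in 5, that of Rab20 in 6, and that of Rab26 in 13 of 20, including without any single 4-month replicate. For the other genes called at 16 months the change was not shown to differ between the ages; for Rab38 the interaction was -0.30 (SE 0.74, limma adjusted p = 0.824). The ages were hybridised on different slides, and the effects of slide and age cannot be told apart.

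Proteins that act on Rabs were taken as 4 lists, in which 114 of 119 genes were measured. At 16 months 19 rose and 31 fell, against 19.3% and 15.1% of all features; in percent of the 114 genes that was 16.7% and 27.2%. Their median difference was -0.02. At 4 months 0 passed by limma. At an unadjusted p under 0.05 there were 12 of the 114 genes, and 1927 of 31923 features in all. Replicates did not overlap at that age for 21 of the 114 that lay higher and 5 that lay lower in KO. Of all features these were 5% and 6.72%. Effectors made up 12 of the 21.

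Of 5 genes that attach the prenyl anchor or keep Rabs in the cytosol, 2 rose and 1 fell (40% and 20%). The background for each of the 4 lists is 19.3% of all features that rose and 15.1% that fell. Rabggtb, the catalytic subunit of the enzyme that prenylates Rabs, was measured at 0.16 and -0.01 in WT and at 4.88, 2.65, 2.93 and 3.86 in KO. It rose by 3.50 (SE 0.62, limma adjusted p = 0.00195), far outside the WT values. Chm, the escort protein that presents Rabs to that enzyme, rose by 2.22 (SE 0.77, limma adjusted p = 0.0454), although its lowest KO replicate (-0.30) lay below the higher WT replicate (0.18). That call was lost in 16 of 22 alternatives, among them a replicate block (limma adjusted p = 0.0960). Its relative Chml fell by 1.58 (SE 0.48, limma adjusted p = 0.0274). The GDP dissociation inhibitor Gdi2 differed by 0.60 (SE 0.30) and did not pass.

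Exchange factors gave 2 rises and 10 falls among 35 (5.71% and 28.6%, against 19.3% and 15.1% of all features). Dennd1c, of the DENN family that includes activators of Rab35, was measured at 3.07 and 4.01 in WT and at -4.23, -1.49, -1.51 and -2.25 in KO. It fell by 5.91 (SE 0.64, limma adjusted p = 0.000183), the largest difference among these lists. Hps4, a subunit of the exchange factor for Rab32 and Rab38, fell by 4.05 (SE 0.54, limma adjusted p = 0.000463), and Dennd4b, an activator of Rab10, by 3.18 (SE 0.50, limma adjusted p = 0.00105). Mon1b, part of the complex that activates Rab7, fell by 0.88 (SE 0.28, limma adjusted p = 0.0313); Mon1a differed by 0.73 (limma adjusted p = 0.464). Rabgef1, an activator of Rab5, differed by 0.88 (SE 0.62, limma adjusted p = 0.302).

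GTPase-activating proteins gave 5 rises and 10 falls among 32 (15.6% and 31.2%, against 19.3% and 15.1% of all features). The 3 largest were the falls of Rabgap1 (-4.49, SE 0.68, limma adjusted p = 0.000924; -0.37 with the mean of its probes, limma adjusted p = 0.601), Sgsm1 (-3.96, limited by the floor in 3 of 4 KO replicates) and Tbc1d25 (-3.10, SE 0.39), an inactivator of autophagosome Rabs. Effectors gave 10 rises and 10 falls among 42 (23.8% each), so the share of rises was near the background. Sytl3, a binder of Rab27, rose by 4.64 (SE 1.19, limma adjusted p = 0.0129), a size limited by 1 WT replicate at the floor; without WT replicates 3 and 4 it differed by 2.45 (limma adjusted p = 0.161). Lrrk1 and Mlph fell by 4.17 and 4.13, each with a KO replicate at the floor. Lrrk2, the kinase that phosphorylates several Rabs, was measured at 1.60 and -0.13 in WT and at 4.96, 3.37, 3.79 and 4.44 in KO. It rose by 3.41 (SE 0.66, limma adjusted p = 0.00323), and at 4 months it differed by 2.36 without passing. Rilp, the effector of Rab7, rose by 2.18 (SE 0.74, limma adjusted p = 0.0419), a call lost in 14 of 22 alternatives, among them quantile normalization (1.78, limma adjusted p = 0.0662). Eea1, the tether of Rab5, differed by 0.29 (SE 0.43, limma adjusted p = 0.659). Of the called genes named from these lists, Dennd1c, Hps4, Rabggtb, Lrrk2 and Tbc1d25 passed under every alternative run.

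**Figure D4:**
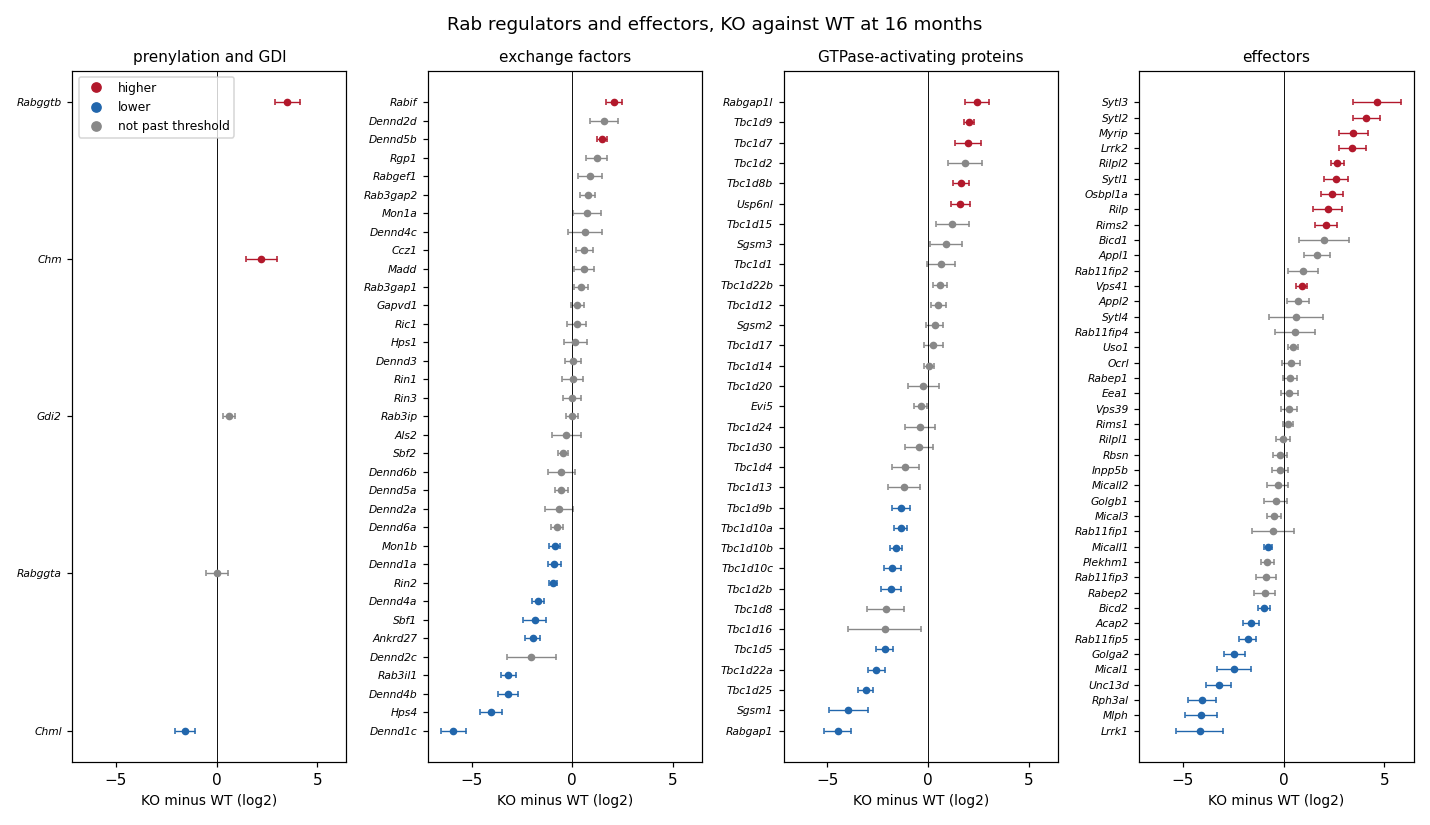
KO minus WT differences at 16 months (x axis, log2, with standard errors) of the 114 measured genes that prenylate, activate, inactivate or bind Rabs, in 4 panels ordered by the difference. Red marks the 19 genes that rose, blue the 31 that fell and grey those that did not pass. Exchange factors, GTPase-activating proteins and effectors hold 10 falls each, among 35, 32 and 42 genes. That is 28.6%, 31.2% and 23.8%, against 15.1% of all features.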

How the data were processed

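Total RNA of sorted microglia was hybridised to single-color Agilent arrays of design 028005. Per the file headers, the deposited processed signal is a spot's intensity after background subtraction by Feature Extraction 10.7.3.1; R 2.15.3 is named as well, per the submitters' processing notes. The 4-month signals also carry a correction for position on the slide that the 16-month signals lack, so age comparisons across slides are affected; median spot intensities, an alternative, avoid it. The bead array table of brain tissue was not used here.

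Each processed signal was divided by its array's 75th percentile over non-control spots. Values under a floor of 0.0326 (-4.94 on the log2 scale, the highest over arrays of the lowest signal well above background) were set to the floor, and log2 was taken. Repeat spots were averaged without outlier spots, which left Rab12 with no value on 2 arrays, and Rab13, Rab14 and Rab2a with none on 1 each. Kept were 45616 of 55681 probes, those well above background on at least 3 arrays. Symbols came from the probes' RefSeq accessions through RefSeq annotation of GRCm38.p6 (26582 probes, 20145 symbols).

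The scaled median absolute log2 difference was 0.0945 to 0.123 within the 2 averaged WT pairs. Between repeat spots of an array it was 0.116 to 0.190. Between other arrays of a group it was 0.382 to 0.509 at 4 months and 0.565 to 1.28 at 16 months. This left 13 replicates. A single linear model over the 4 groups was fitted with limma 3.58.1 in R 4.3.3, with lmFit and eBayes, two-sided, Benjamini-Hochberg over all features, threshold 0.05. It was tested on simulated data. The number of arrays limits the precision. WT and KO occupied separate positions of the slides, and position and genotype cannot be told apart. Same-numbered WT and KO arrays had correlated deviations of -0.126 to -0.0677 at 4 months (3 pairs) and 0.113 to 0.244 at 16 months (4 pairs, over WT arrays that stand for 2 samples), so the numbers were not taken as pairing.

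The members and lists were chosen with earlier results of these data known. Named were all Rab genes past the threshold at 4 months or in the interaction, at 16 months up to 12 with the largest change in each direction whose groups did not overlap, the 5 brightest and 5 dimmest by WT level, a roster of widely studied Rabs, and, of the regulators, 9 set genes and the 3 largest changes per list; 1 further gene of these lists is not reported here and was left out of their counts. Alternatives were another base for the 75th percentile, normexp background correction (offset 50, on median spot signals), median spot signals, quantile normalization, a stricter probe filter, the mean of a gene's probes, a fit of 1 age alone, all 15 arrays as replicates, a replicate block and leaving out each replicate.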

Additional observations from a re-analysis of the deposited data

Results flagged for a closer look

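In 6 of 109 sets of replicates examined, 1 replicate lay far from the others; chance gives about 1 in 20. Rab3b was at -3.00 in WT replicate 3 at 4 months, against -4.94 to -4.79 in the others. Rab27b was at -1.80 in the same replicate, against -3.44 to -3.19, and Rab29 at 3.03, against 3.34 to 3.39. Rab38 was at -3.54 in WT replicate 2 at 4 months, with the other 3 at the floor of -4.94. Rab6a was at 3.73 in KO replicate 2 at 16 months, against 4.32 to 4.35, and Rab7b at -1.18 in KO replicate 1 at 16 months, against 0.89 to 1.26.

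The KO difference itself differed between the ages, by limma's interaction test, for 12 Rab genes. It was larger at 16 months for Rab2a (2.27), Rab5a (1.67), Rab9 (1.33), Rab18 (2.09), Rab20 (2.48) and Rab26 (3.30). It went the other way for Rab3c (-3.28), Rab5b (-2.45), Rab5c (-2.09), Rab6b (-2.81), Rab11b (-1.93) and Rab32 (-1.44). The interaction passed under every alternative run for Rab2a, Rab3c, Rab6b and Rab32, and was lost in 13 of 20 for Rab26.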

How the results depend on the processing

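The counts of 0 Rab genes at 4 months did not change under any alternative run. A fit of 1 age alone has fewer samples and takes the spread of that age only. In it 4 Rab genes rose and 2 fell at 16 months, and 7 and 6 of the regulators and effectors. Of all features 5.47% rose and 5.32% fell in that fit. With a replicate block 6 Rab genes passed in the interaction and 12 regulators and effectors rose. The Rab counts at 16 months were then 13 and 8, against 13.7% and 12.9% of all features. With the 75th percentile over probes detected on all arrays the Rab median at 16 months was 0.19. Leaving out 1 replicate in turn gave 9 to 16 rises, 6 to 9 falls, a median of 0.38 to 0.53 at 16 months, 8 to 15 genes in the interaction, and 12 to 20 rises and 18 to 32 falls of regulators and effectors; the lowest count of rises, 9, came without WT replicate 3 and 4, where the lone WT replicate is assumed to vary like the other groups. The cause of the other shifts was not tested.

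Signs reversed with the mean of a gene's probes for Rab5b (0.17; 0.61 in the interaction), Rab10 (0.37), Rab29 (0.59) and Rabgef1 (-0.075); with the other 75th percentile for Rab7b (-0.20), Rab14 (-0.22), Rab31 (-0.27) and Eea1 (-0.026); with quantile normalization for Rab14 (-0.63), Rab31 (-0.37) and Gdi2 (-0.17); and with normexp for Rab31 (-0.0115). Without WT replicates 1 and 2 Rab7b (-0.29), Rab14 (-0.21) and Rab31 (-0.62) reversed, and without 3 and 4 Rab12 (0.075) did. Leaving out single replicates gave ranges of -0.28 to 0.028 for Rab12, -0.13 to 0.68 for Rab7b, -0.15 to 0.80 for Rab27a and -0.17 to 0.16 for Rab31. Of these, Rab5b alone had passed. Genes near the floor of -4.94 have no order there, and no fit with slide as a block adds to the 4-group fit.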
